A study of Mus musculus with 4 samples.

Results

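Killer lectin-like receptors are described here through 4 genes, Klrd1, Klrk1, Klrb1b and Klra17, of 12393 genes measured in myeloid cells of the mouse large intestine. The rule for choosing them took every probe set, the group of short probes that reads 1 transcript, that the array's annotation assigns to 1 of these 4 genes and to no other. It found 7 probe sets, 4 of them for Klrb1b and 1 for each other gene. The genes were chosen by these signals in the 4 populations, so the signals below describe them and test nothing.

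The study sorted 4 populations of cells from the large-intestinal lamina propria, which lies beneath the gut epithelium, of C57BL/6J mice. DCs are the CD11chigh CD11b- dendritic cells. CX3CR1- cells are CD11c+ CD11b+ and lack CX3CR1, and their sample title also calls them DC. CX3CR1high macrophages are CD11c+ CD11b+ with much CX3CR1, and CD11b+ cells are CD11c- CD11b+. All 4 share strain and tissue, and no treatment sets them apart. Age, sex and the number of mice behind each array are not given in the sources used here. RNA of each population was read on 1 Affymetrix 3' array, and values are linear signal intensities that the authors scaled to a common trimmed mean on every array. With 1 array per population there is no replicate, so no ratio has a standard error or a test, and precision is limited by the number of arrays. Because the samples are bulk RNA, fewer cells that carry a transcript and less of it per cell cannot be told apart.

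Killer lectin-like receptors are membrane proteins of the C-type lectin-like superfamily, known best from natural killer (NK) cells, where they bind MHC class I and related proteins and pass on activating or inhibiting signals. Klrd1 encodes CD94, which joins NKG2 chains (Klrc genes) to form receptors for the MHC protein Qa-1. Klrk1 encodes NKG2D, an activating receptor for stress-induced ligands. Klrb1b encodes an inhibitory NKR-P1 receptor whose ligand is the lectin-like protein made by Clec2d. Klra17 encodes Ly49Q, an inhibitory Ly49 receptor known from plasmacytoid DCs and other myeloid cells, which binds H2-K. In the mouse all 4 genes lie on chromosome 6, in the cluster known as the NK gene complex.

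Klrd1, Klrk1 and Klrb1b had their highest signal in the DCs, and Klra17 had its highest in the CX3CR1- cells. All 4 genes had their lowest signals in the CX3CR1high macrophages and the CD11b+ cells. A floor of 103 was set under the signals, which is their median over the 4 arrays with control probe sets left out. Where only 1 of both signals reached the floor, the ratio is a bound and is given as at least so many fold. A gene is called different at 4-fold or more. Replicates being absent, each log2 ratio is set beside the SD that probe sets of a shared gene show in the same comparison, which contains no difference between mice or collections.

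Klrd1, the CD94 chain, had a signal of 3933 in the DCs, 2321 in the CX3CR1- cells, 223 in the CX3CR1high macrophages and 187 in CD11b+ cells. The signals thus fall into a high group, the DCs and the CX3CR1- cells, and a low group, both others. The DC signal was 17.6-fold that of the CX3CR1high macrophages and 21.1-fold that of the CD11b+ cells. The CX3CR1- signal was 10.4-fold and 12.4-fold those of the same populations. Between neighbours in this order, the DC signal was 1.69-fold that of the CX3CR1- cells, a log2 ratio of 0.76 beside a spread between probe sets of 0.52. The log2 ratio of the CX3CR1high macrophages over the CD11b+ cells was 0.26, smaller than the spread of 0.33.

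Klrk1, the NKG2D gene, had a signal of 3417 in the DCs, 574 in the CX3CR1- cells, 122 in the CX3CR1high macrophages and 143 in CD11b+ cells. It is the member that set the DCs apart from all other populations. Its DC signal was 5.96-fold that of the CX3CR1- cells, 28.0-fold that of the CX3CR1high macrophages and 23.9-fold that of the CD11b+ cells. Of 7847 genes that reached the floor in at least 1 array, 39 (0.497%) were at least 4-fold higher in the DCs than in each other population, and Klrk1 was the only member among them. No member stood so above all others in the CX3CR1- cells, the CX3CR1high macrophages or the CD11b+ cells, where 0.0255%, 0.446% and 0.204% of these genes did. The CX3CR1- cells also lay above the macrophages, at 4.70-fold, and above the CD11b+ cells, at 4.01-fold. That last ratio stands at the 4-fold limit, and both low signals lie just over the floor. The order of the CX3CR1high macrophages and the CD11b+ cells differed by a log2 ratio of -0.23, within the spread of 0.33. Klrk1 rests on a single probe set of the type that can match several transcripts of a gene.

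Klrb1b, the inhibitory NKR-P1 gene, is read by 4 probe sets that name it alone. Another set, which also names Klrb1c, was under the floor everywhere, from 4.75 in the DCs to 20.1 in the CX3CR1high macrophages. The set taken for Klrb1b is of the type that can match transcripts of related genes, although the annotation gives it this gene alone. That set had signals of 2591 in the DCs, 2222 in the CX3CR1- cells, 279 in the CX3CR1high macrophages and 123 in CD11b+ cells. The DCs and the CX3CR1- cells lay close together, with a log2 ratio of 0.22 beside a spread of 0.52. Above the CX3CR1high macrophages the DCs were 9.28-fold and the CX3CR1- cells 7.96-fold higher. Above the CD11b+ cells they were 21.1-fold and 18.1-fold higher.

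The other 3 probe sets that name only Klrb1b kept the same order for the populations high in this gene. The second set read 2256 in the DCs, 1537 in the CX3CR1- cells, 174 in the CX3CR1high macrophages and 39.1 in CD11b+ cells. The third, of the type that can match related sequences, read 1037 in the DCs and 608 in CX3CR1- cells, against 83.2 in the CX3CR1high macrophages and 24.7 in CD11b+ cells. The last read 406 in the DCs and 215 in CX3CR1- cells, against 29.1 in the CX3CR1high macrophages and 3.18 in CD11b+ cells. The third and the last set were thus under the floor in both low populations, which leaves no order between those. For the DCs over the CX3CR1- cells the 4 sets gave log2 ratios of 0.22, 0.55, 0.77 and 0.92. For the CX3CR1high macrophages over the CD11b+ cells the main set gave 2.28-fold and the second at least 1.69-fold. As a bound the last set missed the 4-fold limit, at no less than 3.94-fold for the DCs over either low population.

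Klra17, the Ly49Q gene, had a different order. Its signal was 270 in the DCs, 672 in the CX3CR1- cells, 99.1 in the CX3CR1high macrophages and 70.0 in CD11b+ cells. Only the DCs and the CX3CR1- cells reached the floor. The DC signal was 2.49-fold lower than that of the CX3CR1- cells, a log2 ratio of -1.32 beside a spread of 0.52. The DCs were at least 2.62-fold above both populations under the floor, and the CX3CR1- cells at least 6.53-fold above them. Between the CX3CR1high macrophages and the CD11b+ cells there is no ratio, since both were under the floor.

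**Figure D1:**
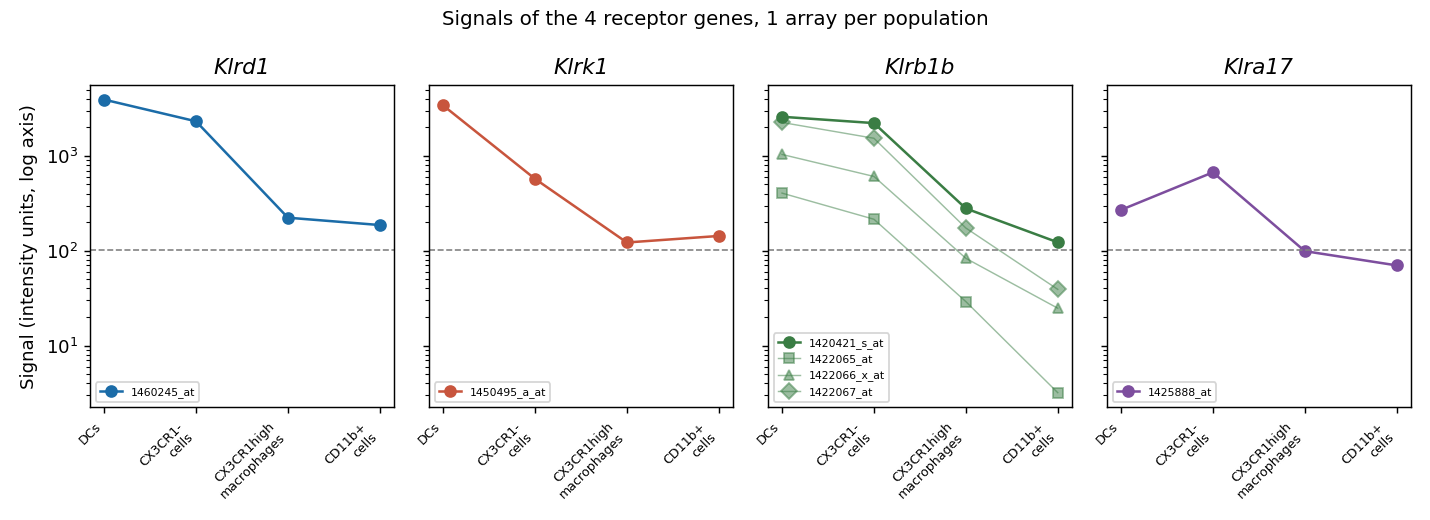
Signal of each probe set (intensity units, log axis) of Klrd1, Klrk1, Klrb1b and Klra17 in the 4 populations, 1 array each. Points are single arrays with no error bars, lines only join the points of a probe set, and the dashed line is the floor of 103. Klrd1, Klrk1 and the 4 sets that name only Klrb1b are highest in the DCs, and Klra17 is highest in the CX3CR1- cells at 672.

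The promoter windows of 3 members, from 250 bases before to 50 after the start site, are shown because Klrk1 and Klrb1b were highest in the DCs while Klra17 was highest in the CX3CR1- cells. Klrb1b has 2 windows, of which the first is shown. Sequences are from RefSeq on GRCm38.p6, written 5' to 3' on the gene's strand. Capitals mark matches, on either strand, to letters of 4 motifs, the ETS core GGAAGT, the AP-1 site TGANTCA, the RUNX core TGTGGT and the core of the interferon-stimulated element (GAAA, any 2 bases, GAAA).
Klrk1 (chr6:129623815-129624114, - strand): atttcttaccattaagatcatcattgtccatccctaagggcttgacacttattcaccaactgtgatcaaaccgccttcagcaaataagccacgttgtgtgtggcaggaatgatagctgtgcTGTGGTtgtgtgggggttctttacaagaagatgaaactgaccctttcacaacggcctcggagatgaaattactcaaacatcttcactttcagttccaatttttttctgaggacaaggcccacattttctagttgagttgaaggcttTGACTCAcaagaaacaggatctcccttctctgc
Klrb1b (chr6:128826266-128826565, - strand): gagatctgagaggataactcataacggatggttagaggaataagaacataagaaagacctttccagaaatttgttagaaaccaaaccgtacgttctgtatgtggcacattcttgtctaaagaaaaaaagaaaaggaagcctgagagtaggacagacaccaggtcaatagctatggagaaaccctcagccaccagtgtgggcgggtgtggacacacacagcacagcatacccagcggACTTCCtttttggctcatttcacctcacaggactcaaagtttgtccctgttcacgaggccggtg
Klra17 (chr6:129876623-129876922, - strand): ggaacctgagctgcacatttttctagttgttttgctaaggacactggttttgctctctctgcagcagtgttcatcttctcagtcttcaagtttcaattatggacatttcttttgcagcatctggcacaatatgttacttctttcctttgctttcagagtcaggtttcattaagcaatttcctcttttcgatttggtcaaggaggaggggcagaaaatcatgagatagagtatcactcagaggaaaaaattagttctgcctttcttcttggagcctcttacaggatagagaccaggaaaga
The Klrk1 window held 1 RUNX core, 129 bases before the start site, and 1 AP-1 site, 17 bases after it and read on both strands. The Klrb1b window held 1 ETS core, on the opposite strand, 14 bases before the start site. In the Klra17 window none of the 4 motifs matched. Over the first windows of 27025 genes the ETS core occurred in 24.1%, the RUNX core in 16.9%, the AP-1 site in 7.93% and the interferon-stimulated element core in 3.49%. Such matches describe letters in these windows and no binding.

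The counts over all genes give the background. Against the CX3CR1high macrophages, 3 of 4 members were at least 4-fold higher in the DCs, where 1.95% of 7480 genes were. Against the CD11b+ cells, the same 3 of 4 were higher in the DCs, where 1.96% of 7483 genes were. In the CX3CR1- cells 4 of 4 members were at least 4-fold higher than in the CX3CR1high macrophages, beside 1.26% of 7462 genes higher and 1.38% lower. The count was also 4 of 4 over the CD11b+ cells, beside 0.569% of 7377 genes higher and 0.488% lower. For the DCs over the CX3CR1- cells it was 1 of 4, Klrk1, beside 0.798% of 7266 genes. Between the CX3CR1high macrophages and the CD11b+ cells 0 of 3 members with a ratio were called, beside 0.865% of 7512 genes higher and 0.799% lower. In no comparison was a member at least 4-fold lower in the population named first. Only 20 of 7847 genes (0.255%) had the DCs and the CX3CR1- cells each at least 4-fold above both other populations, and Klrd1, Klrk1 and Klrb1b were 3 of these. The members were chosen for such signals, so nothing is read from these shares.

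**Figure D2:**
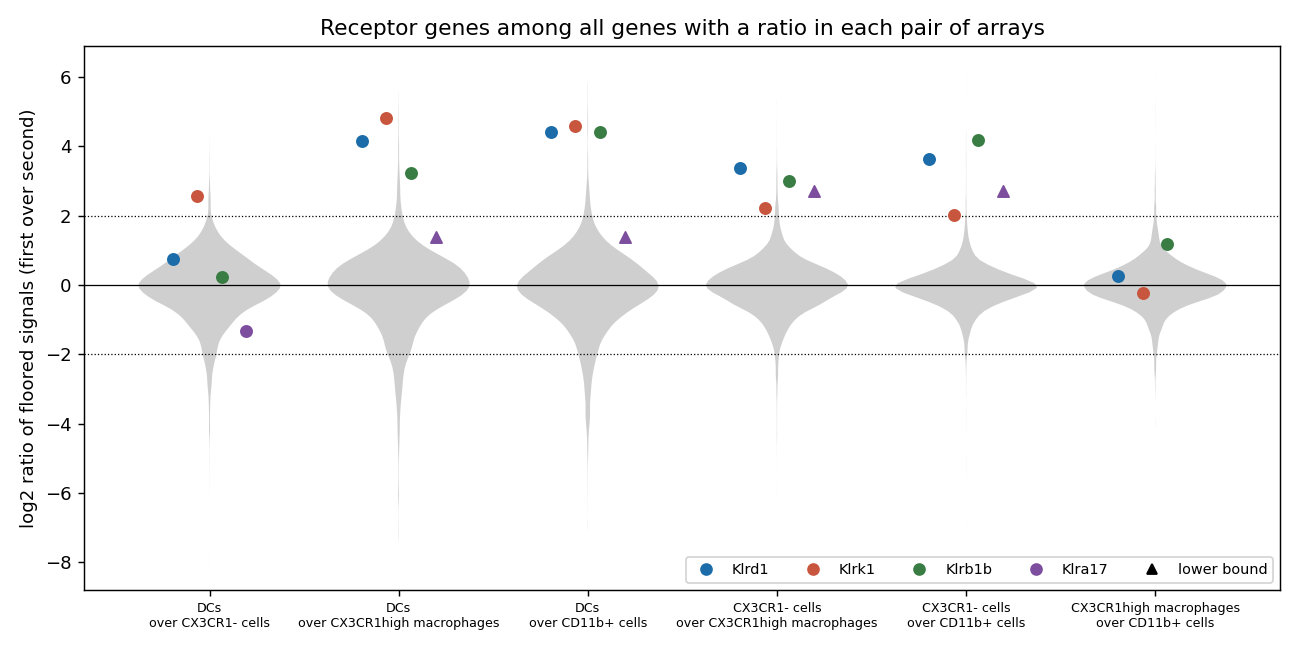
Log2 ratio of floored signals in each of the 6 comparisons, first population over second. Grey shapes show all genes with a ratio, circles the members measured on both sides, triangles members with a lower bound, and dotted lines the 4-fold limits. The members lie above the upper limit in both comparisons of the CX3CR1- cells with the populations low for these genes, from 4.01-fold (Klrk1) to 18.1-fold (Klrb1b), and none leaves the limits between the CX3CR1high macrophages and the CD11b+ cells.

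Of the genes behind the gates, Itgam (CD11b) was under the floor at 45.9 in the DCs and at 408 to 691 elsewhere. Cx3cr1 read 65.2 in the DCs, 291 in the CX3CR1- cells, 1499 in the CX3CR1high macrophages and 638 in CD11b+ cells, so it was above the floor in the cells sorted as lacking it. Itgax (CD11c) read 5893 in the DCs, 8412 in the CX3CR1- cells, 1826 in the CX3CR1high macrophages and 1864 in CD11b+ cells, and so did not separate the CD11c- population from the CD11c+ macrophages. Itgae, the CD103 gene in the DCs' sample title, read 4962 in the DCs, 374 in the CX3CR1- cells, 90.0 in the CX3CR1high macrophages and 39.2 in CD11b+ cells. RNA quality and scale differed between the arrays. The 3'/5' ratio of the Gapdh control probe sets, a measure that climbs with RNA degradation, was 0.791 in the DCs, 3.40 in the CX3CR1- cells, 1.08 in the CX3CR1high macrophages and 2.17 in CD11b+ cells. For Actb it was 1.11 in the DCs, 2.76 in the CX3CR1- cells, 1.68 in the CX3CR1high macrophages and 3.18 in CD11b+ cells. The part of RNA quality in the member ratios was not tested. Median signals over all non-control probe sets were 88.5 in the DCs and between 103 and 110 in the other arrays. With equal medians or quantile normalization every member ratio kept its sign and its side of the 4-fold limit.

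In at least 1 array 7847 of all 12393 genes reached the floor. Of 12 other killer lectin-like receptor genes with a probe set of their own, 9 stayed under it in all 4 arrays. The 12 probe sets of these 9 genes reached at most 32.3. Among these were the NKG2 chains Klrc1, Klrc2 and Klrc3, which pair with CD94, and the others were Klra1, Klra7, Klra8, Klra16, Klrb1a and Klrb1f. Klrc1, the inhibitory NKG2A chain, read 30.9 in the DCs, 21.3 in the CX3CR1- cells, 22.4 in the CX3CR1high macrophages and 19.6 in CD11b+ cells by the probe set used, and Klrc2 and Klrc3 read 11.5 or less in every array. Klrd1 was thus measured well above the floor in the DCs while none of these 3 chains reached it. A further 4 probe sets of the family match several genes and enter no comparison. For 3 of them every signal was under the floor, while 1, which matches several Ly49 genes, read 616 in the DCs, 204 in the CX3CR1- cells, 337 in the CX3CR1high macrophages and 192 in CD11b+ cells.

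The 3 other family genes that reached the floor differed from the 4 members and from each other. Klra2, the Ly49B gene, known from myeloid cells, had a signal of 42.6 in the DCs, 283 in the CX3CR1- cells, 385 in the CX3CR1high macrophages and 380 in CD11b+ cells. Its order thus runs against that of Klrd1 and Klrk1, since the DCs were the only population under the floor, at least 3.74-fold below the CX3CR1high macrophages and at least 2.75-fold below the CX3CR1- cells. Klra5, the Ly49E gene, read 266 in the DCs and 21.7, 16.01 and 17.7 in the CX3CR1- cells, the CX3CR1high macrophages and the CD11b+ cells. Like Klrk1 it was highest in the DCs, by at least 2.59-fold, which is below the 4-fold limit. Klrg1, an inhibitory receptor for cadherins, touched the floor in the CX3CR1- cells alone, with 79.1 in the DCs, 103.3 in the CX3CR1- cells, 64.8 in the CX3CR1high macrophages and 92.2 in CD11b+ cells. None of the 3 passed 4-fold in any comparison, and the list's median log2 ratio for the DCs over the CX3CR1high macrophages was -0.27 over 2 genes, beside -0.02 over all genes.

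The adaptors on a list of signalling partners were measured in every population. Hcst encodes DAP10, the adaptor of NKG2D, and read 416 in the DCs, 514 in the CX3CR1- cells, 466 in the CX3CR1high macrophages and 546 in CD11b+ cells. These 4 signals lay within 1.31-fold of each other, whereas Klrk1 spanned 28.0-fold. Tyrobp encodes DAP12, which also serves NKG2D in the mouse, and was lowest in the DCs at 10400.2, against 14422 in the CX3CR1- cells, 17075 in the CX3CR1high macrophages and 19684 in CD11b+ cells. Fcer1g, the common Fc receptor gamma chain, was the adaptor on the list that differed most, and is not given here as the adaptor of a member. It read 2573 in the DCs against 10959, 18941 and 16653 in the CX3CR1- cells, the CX3CR1high macrophages and the CD11b+ cells. The DC signal was 4.26-fold, 7.36-fold and 6.47-fold lower than these.

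Among kinases and phosphatases downstream, only Fyn crossed the 4-fold limit. Fyn, a Src-family kinase, read 2023 in the DCs and 1739 in CX3CR1- cells, against 333 in the CX3CR1high macrophages and 688 in CD11b+ cells. The DC signal was 6.08-fold and the CX3CR1- signal 5.23-fold that of the CX3CR1high macrophages, so Fyn shared the high group of Klrd1 and Klrb1b in a milder form. Another set of Fyn read 1711 in the DCs, 1177 in the CX3CR1- cells, 368 in the CX3CR1high macrophages and 781 in CD11b+ cells. By that set the CX3CR1- cells stayed under the 4-fold limit over the CX3CR1high macrophages. Syk, the kinase recruited by DAP12, was lowest in the DCs at 2220, against 8117 in the CX3CR1- cells, 4360 in the CX3CR1high macrophages and 6601 in CD11b+ cells. By the probe sets used, the phosphatases that inhibitory receptors recruit lay within 2-fold between the DCs and every other population. Ptpn6 (SHP-1) read 920 in the DCs against 741, 1047 and 988 in the CX3CR1- cells, the CX3CR1high macrophages and the CD11b+ cells. Another set of Ptpn6 differed more, at 543 in the DCs and 1220 in the CD11b+ cells. Pik3cd, a PI3-kinase subunit, was 2.93-fold lower in the DCs than in the CX3CR1- cells, and Src was 2.52-fold lower in the DCs than in the CX3CR1high macrophages. Of the 15 adaptors and signalling partners measured, 1 was at least 4-fold higher (Fyn) and 1 lower (Fcer1g) in the DCs than in the CX3CR1high macrophages, where 1.95% and 6.06% of all genes were. The median log2 ratio of the list was -0.19 there, beside -0.02 over all genes. For the DCs over the CX3CR1- cells 0 of 15 were higher and 1 lower (3.50% of all genes lower), and over the CD11b+ cells 0 were higher and 1 lower (6.00% of all genes lower).

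Transcripts of some ligands of the receptors were measured too. Clec2d, the ligand of the Klrb1b receptor, read 1920 in the DCs, 986 in the CX3CR1- cells, 1405 in the CX3CR1high macrophages and 1160 in CD11b+ cells. It was highest in the DCs, by 1.95-fold over the CX3CR1- cells and less over both others, far short of the 9.28-fold of Klrb1b over the CX3CR1high macrophages. H2-K1, the class I gene whose product Ly49Q binds, had signals from 18847 to 24639 in the 4 arrays, and B2m, the shared class I light chain, from 19437 to 28692. Of 7 ligand genes measured, 5 reached the floor and 0 were called in any comparison, with a median log2 ratio of -0.13 for the DCs over the CX3CR1high macrophages. The ligands of NKG2D and the Qa-1 gene were not analysed here.

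**Figure D3:**
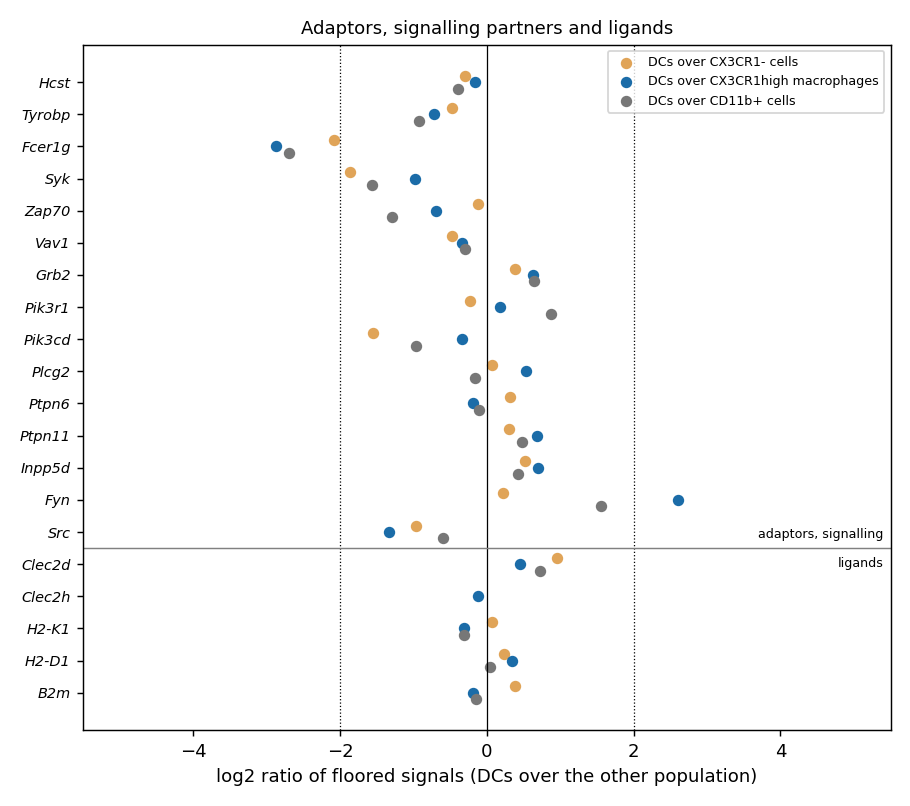
Log2 ratio of floored signals, DCs over each other population, for 15 adaptors and signalling partners (upper part) and 5 ligand genes that reached the floor (lower part). Points are ratios between single arrays, and dotted lines mark the 4-fold limits. Fcer1g lies below the lower limit in all 3 comparisons, Fyn lies above the upper limit over the CX3CR1high macrophages at 2.60, and Hcst stays between -0.39 and -0.16.

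Markers of lymphocytes were compared with the members, since NK cells and T cells are the best-known carriers of these receptors. Of 17 NK cell genes measured, 7 reached the floor in at least 1 array, as 7847 of all 12393 genes did. The other 10 were under the floor in all 4 arrays. These included Ncr1, the NKp46 receptor that defines NK cells, at 17.5 or less in every array and at 1.03 in the DCs. Nkg7 and Prf1, genes of cytotoxic granules, reached at most 58.7 and 66.1. The summed signal of the list was 1742 in the DCs, 2300 in the CX3CR1- cells, 1219 in the CX3CR1high macrophages and 2056 in CD11b+ cells. The gene with the most signal in it was Cd244a, a receptor also found on myeloid cells, at 967 in the DCs, 1290 in the CX3CR1- cells, 582 in the CX3CR1high macrophages and 954 in CD11b+ cells. Besides it, Tbx21, a transcription factor of NK and T cells, was the only gene of the list at the floor in the DCs. Tbx21 was highest there, as Klrd1, Klrk1 and Klrb1b were, and under the floor in every other array. It read 137 in the DCs and 96.1 in CX3CR1- cells, against 32.2 in the CX3CR1high macrophages and 33.3 in CD11b+ cells. Il18rap reached the floor in the CX3CR1- cells alone, at 150.3. Ncam1, Gzmb, Il2rb and Gzma were highest in the CD11b+ cells, where the members were low, at 363, 151, 132 and 104. All of these were under the floor in the DCs. The list had 2 genes at the floor in the DCs, 3 in the CX3CR1- cells, 1 in the CX3CR1high macrophages and 5 in CD11b+ cells. In every comparison 0 genes of the list were called, of 2 to 6 with a ratio. The part of NK cells in the member signals was not tested.

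The CD3 genes Cd3e, Cd3d and Cd3g were under the floor in every array, and in the DCs they read 7.67, 76.3 and 43.5. Of 13 T cell genes 9 stayed under the floor everywhere and 4 reached it in at least 1 array, as 7847 of all 12393 genes did. The list summed to 948 in the DCs, 1014 in the CX3CR1- cells, 1379 in the CX3CR1high macrophages and 1254 in CD11b+ cells. Cd28, a costimulatory receptor, read 38.6 in the DCs and 96.4 in CX3CR1- cells, against 732 in the CX3CR1high macrophages and 289 in CD11b+ cells. Ctla4 was highest in the DCs, at 376, with 203 in the CX3CR1- cells, 140 in the CX3CR1high macrophages and 367 in CD11b+ cells. Icos was near the floor, at 115 in the DCs and 111 in CX3CR1- cells, against 78.2 in the CX3CR1high macrophages and 77.5 in CD11b+ cells. Cd2 was highest in the CX3CR1- cells at 326, and under the floor in the DCs at 60.4. Of 9 innate lymphoid genes 6 were under the floor everywhere, Gata3 among them at 3.90 or less. The summed signal of that list was carried by Id2, which the CD103-type DC list also holds, and Il7r, the interleukin-7 receptor. Il7r read 1168 in the DCs, 7311 in the CX3CR1- cells, 2636 in the CX3CR1high macrophages and 1737 in CD11b+ cells, so it was highest where Klra17 was. That list summed to 14073 in the DCs, 20204 in the CX3CR1- cells, 11051 in the CX3CR1high macrophages and 8988 in CD11b+ cells. The sum was thus higher in both populations where the members were high, but its single genes differed. Id2 read 12648, 12585, 8151 and 6760 in that order of populations, whereas Il7r was lowest in the DCs. Thy1, the remaining gene that reached the floor, read 109, 198, 124 and 317 in the same order. It was thus highest in the CD11b+ cells, where the members were low. The 7 B and plasma cell genes summed to 10503 in the DCs, 11013 in the CX3CR1- cells, 20005 in the CX3CR1high macrophages and 35052 in CD11b+ cells. Most of it was Jchain, the antibody joining chain of plasma cells, at 10117 in the DCs, 10329 in the CX3CR1- cells, 18478 in the CX3CR1high macrophages and 34144 in CD11b+ cells.

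Ly49Q is known from plasmacytoid DCs. Of 11 genes of that cell type 10 reached the floor, and the list summed to 2910 in the DCs, 3444 in the CX3CR1- cells, 5523 in the CX3CR1high macrophages and 5020 in CD11b+ cells. Bst2 read 1220 in the DCs and 846 in CX3CR1- cells, against 1963 in the CX3CR1high macrophages, where Klra17 was under the floor. Tcf4, the transcription factor of plasmacytoid DCs, read 318 in the DCs, 980 in the CX3CR1- cells, 1250 in the CX3CR1high macrophages and 1152 in CD11b+ cells. Irf7 and Ly6d had their peak in CD11b+ cells, at 1025 and 518, against 363 and 64.2 in CX3CR1- cells. Lair1 had its peak in CX3CR1high macrophages, at 1091, against 318 in CX3CR1- cells. Cox6a2 read 124 both in CX3CR1- cells and in CD11b+ cells. Spib, Lag3 and Il3ra were highest in the CX3CR1- cells, as Klra17 was. Spib read 115 in the DCs and 130 in CX3CR1- cells, against 55.6 in the CX3CR1high macrophages and 80.4 in CD11b+ cells. Lag3 read 112 in the DCs, 239 in the CX3CR1- cells, 150.2 in the CX3CR1high macrophages and 36.0 in CD11b+ cells, and Il3ra read 129, 284, 142 and 210.5 in that order of populations. By the probe set used, the chemokine receptor gene Ccr9 reached the floor in the DCs alone, at 269. Another set of Ccr9, of the type that can match related sequences, read 988 in the DCs and 122 in CX3CR1- cells. It was under the floor in the CX3CR1high macrophages and the CD11b+ cells, at 70.1 and 81.6. The part of plasmacytoid DCs in the signal of Klra17 was not tested.

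Part of the conventional DC genes were higher in the same populations as the members. The list of CD103-type DC genes summed to 53530 in the DCs, 28133 in the CX3CR1- cells, 15694 in the CX3CR1high macrophages and 15619 in CD11b+ cells. Most of the sum in the CX3CR1- cells was Id2, at 12585, and Cd24a, at 9830. In these cells 1 of 8 genes with a ratio was at least 4-fold higher than in the CX3CR1high macrophages (1.26% of all genes). Over the CD11b+ cells it was 0 of 8 (0.569% of all genes). In the DCs 5 of the list's 11 genes were at least 4-fold higher than in the CX3CR1high macrophages, beside 1.95% of all genes. Over the CX3CR1- cells 4 of the 11 were at least 4-fold higher in the DCs (0.798% of all genes), namely Itgae, Xcr1, Naaa and Irf8. The first 3 also passed 4-fold over both other populations, as Klrk1 did. The transcription factor Irf8 did not pass it over the CX3CR1high macrophages, at 11382 in the DCs, 1619 in the CX3CR1- cells, 3272 in the CX3CR1high macrophages and 2322 in CD11b+ cells. Cd24a stood at 12281 in the DCs and 9830 in CX3CR1- cells, against 1469 in the CX3CR1high macrophages and 4332 in CD11b+ cells, an order nearer to that of Klrd1 and Klrb1b. Of 9 shared conventional DC genes, 5 were at least 4-fold higher in the DCs and 7 in CX3CR1- cells than in the CX3CR1high macrophages, and 1, Sirpa, was lower in the DCs. Of all genes 1.95% and 1.26% were so higher, and 6.06% were lower in the DCs. Over the CX3CR1- cells 0 of the 9 were higher in the DCs and 2 were lower (3.50% of all genes lower), Sirpa by 9.73-fold and Cd209a by 6.82-fold. Irf4 read 354 in the DCs, 979 in the CX3CR1- cells, 703 in the CX3CR1high macrophages and 495 in CD11b+ cells, and was not called over any population. The 12 macrophage genes ran the other way, with a sum of 9486 in the DCs, 64440 in the CX3CR1- cells, 155841 in the CX3CR1high macrophages and 82412 in CD11b+ cells. The 9 monocyte and granulocyte genes summed to 12403 in the DCs, 21742 in the CX3CR1- cells, 6186 in the CX3CR1high macrophages and 43270 in CD11b+ cells. How much of the member ratios goes with the share of such cells in each population was not tested.

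**Figure D4:**
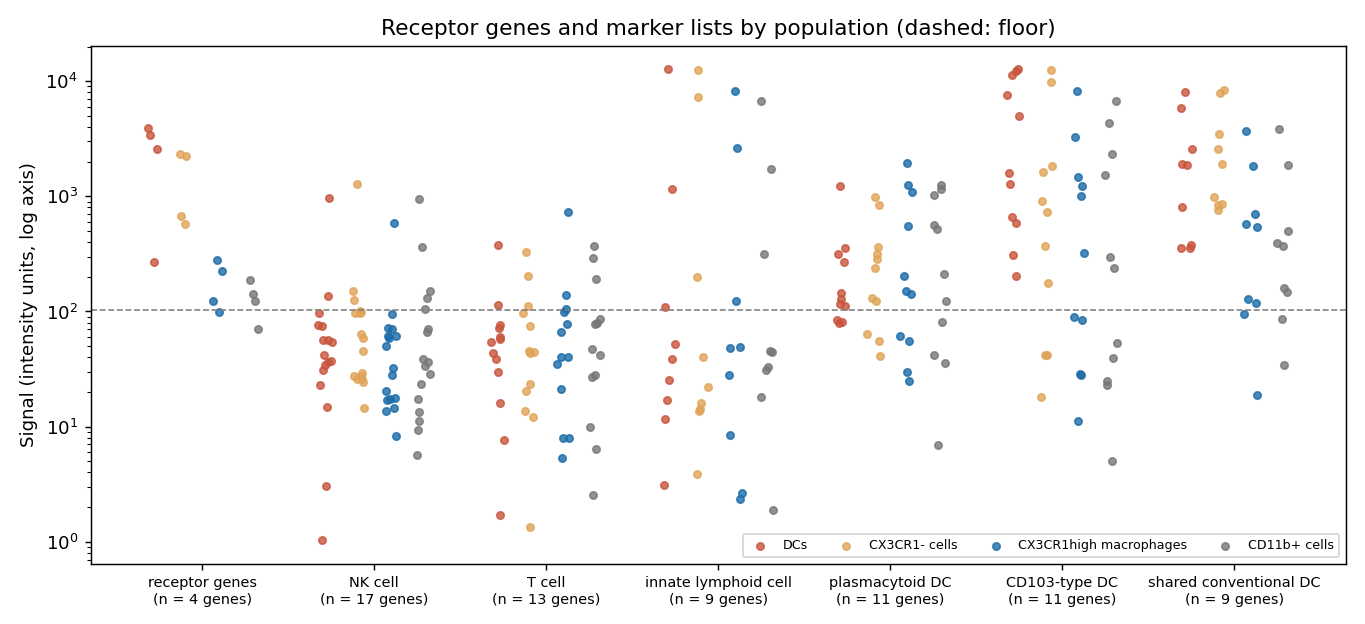
Signals (intensity units, log axis) of the 4 receptor genes and of the measured genes of 6 marker lists in the DCs, CX3CR1- cells, CX3CR1high macrophages and CD11b+ cells. Points are genes on single arrays, and the dashed line is the floor of 103. In the NK cell list 10 of 17 genes lie under the floor in all arrays. The summed signals of both conventional DC lists are higher in the DCs and the CX3CR1- cells than in the other populations. In the CX3CR1- cells most of the CD103-type sum is Id2 and Cd24a.

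The genes with the most similar pattern were found by the root mean square difference of floored log2 signals, each centred on its own mean over the 4 populations. Riken and predicted gene names were left out, as were genes under the floor in every array. Klrd1 was nearest to H2-Oa, a chain of the class II modulator H2-O, at a difference of 0.17 log2 units. H2-Oa read 3113 in the DCs, 1672 in the CX3CR1- cells, 201 in the CX3CR1high macrophages and 121 in CD11b+ cells. Next came Ccr7, the chemokine receptor that leads DCs to lymph nodes (0.29), the granzyme inhibitor gene Serpinb9 (0.30), the growth factor receptor Flt3 (0.32) and Plet1 (0.37). Plet1 has another probe set, at 88.9 in the DCs and 127 in the CX3CR1high macrophages, that does not share its pattern.

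Klrb1b had 3 of these 5 genes among its own nearest, namely Serpinb9 and H2-Oa and Ccr7, each at 0.30. The class II chaperone chain H2-DMb2 (0.34) and Klrd1 itself (0.39) completed the 5. Klrd1 and Klrb1b were therefore the 2 members closest to each other, and the difference between Klrd1 and Klrk1 was 0.71. Klrk1 was nearest to Hepacam2 (0.16), Scin (0.24), Qpct (0.31), Septin6 (0.31) and Flt3 (0.41). Hepacam2 read 2925 in the DCs, 534 in the CX3CR1- cells, 116 in the CX3CR1high macrophages and 99.4 in CD11b+ cells, so it shared the step between the DCs and the CX3CR1- cells. Scin encodes an actin-severing protein and Qpct a glutaminyl cyclase. Scin was under the floor in the CD11b+ cells at 26.0 and Septin6 in the CX3CR1high macrophages at 68.6. Their nearness to Klrk1, like that of Flt3, thus rests in part on floored values.

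Klra17 stood at 1.07 or more from each other member, and other genes were near it. These were Alpk2 (0.24), the cytokine signalling factor Stat4 (0.24), the small GTPase Rras2 (0.25), Stat5a (0.26) and Arap2 (0.26). Stat4 read 918 in the DCs, 2339 in the CX3CR1- cells, 390 in the CX3CR1high macrophages and 534 in CD11b+ cells. Each of the 5 was highest in the CX3CR1- cells, as Klra17 was. These likenesses rest on 4 arrays and describe them only.

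Along chromosome 6 the genes run in the order Klrb1b, Klrd1, Klrk1 and Klra17 in the RefSeq annotation of GRCm38.p6. Klrd1 and Klrk1 are direct neighbours, 19 protein-coding genes lie between Klrb1b and Klrd1, and 6 between Klrk1 and Klra17. This stretch was looked up after the signals were seen. Of its 29 genes 16 were measured, 9 reached the floor in at least 1 array, and 5 of those 9 were not members. None of these 5 was at least 4-fold higher in the DCs than in another population. Clec7a, the beta-glucan receptor Dectin-1, read 12246 in the DCs, 15156 in the CX3CR1- cells, 9272 in the CX3CR1high macrophages and 10648 in CD11b+ cells. Gabarapl1, an autophagy gene, read 1091 in the DCs, 858 in the CX3CR1- cells, 1185 in the CX3CR1high macrophages and 959 in CD11b+ cells. Both were thus within 2-fold over the 4 arrays. Olr1, the receptor for oxidised lipoprotein, was under the floor in the DCs at 101 and stood at 1185 in the CX3CR1- cells, 201 in the CX3CR1high macrophages and 693 in CD11b+ cells. Its DC signal was at least 11.5-fold lower than that of the CX3CR1- cells. The CX3CR1- signal of Olr1 was 5.90-fold that of the CX3CR1high macrophages, a comparison in which all 4 members were also called. Of the 5 neighbours with a ratio there, Olr1 was the 1 called, beside 1.26% of all genes. Clec1b touched the floor in the CX3CR1- cells alone, and Clec2d is given above.

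**Figure D5:**
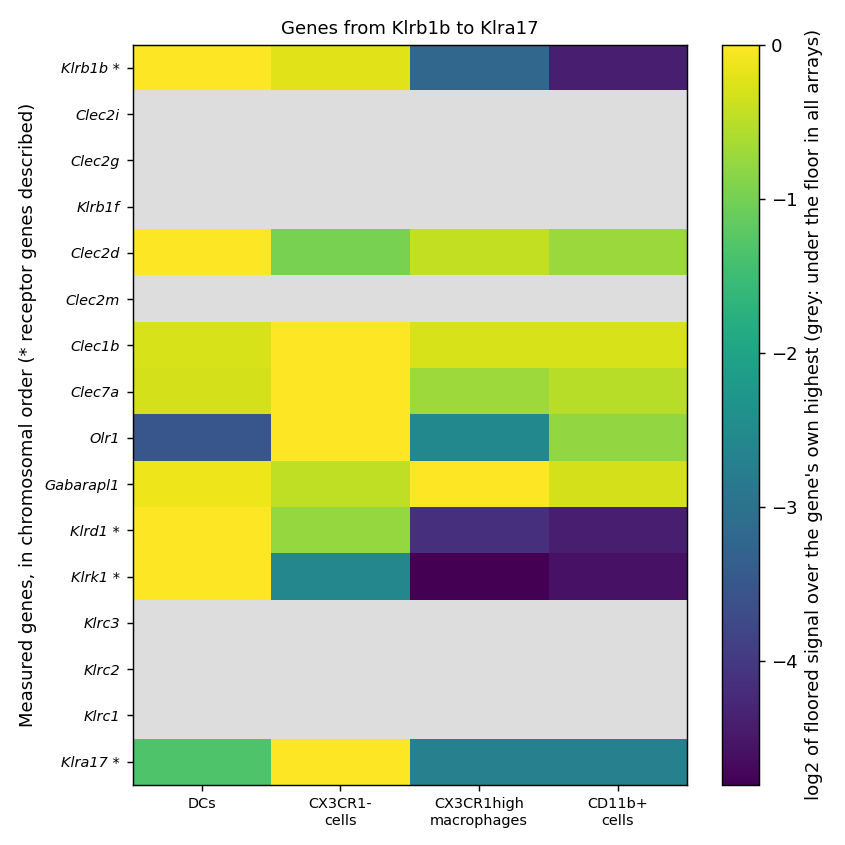
Measured genes from Klrb1b to Klra17 in chromosomal order, with stars at the 4 members. Colour gives the log2 of the floored signal over the gene's own highest signal in the 4 arrays, and grey marks genes under the floor in all arrays. Klrb1b, Klrd1 and Klrk1 are brightest in the DCs, Klra17 and Olr1 in the CX3CR1- cells, and Clec7a and Gabarapl1 vary little.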

How the data were processed

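RNA of 4 sorted populations was measured, with biotin label, on 1 Affymetrix 3' array each (labels' protocols). Each deposited value is the signal intensity of a probe set, computed by the authors in MAS5 per the submitters' processing notes, with no version given there. The deposited intensity values had a mean of 500.3 on every array with 2% trimmed from each end, so they carry the authors' scaling, and they were used with no further normalization.

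Of 22690 probe sets, 64 were controls, 20380 named 1 gene, 691 named several and 1555 named none, and those naming 1 gene were used. Per gene the set with the highest mean log2 signal was taken, preferring sets not ending in _x_at, and 99.8% of the 12393 genes matched RefSeq by Entrez number. Signals under the floor of 103 were set to it, and genes were called at 4-fold or more in 6 comparisons, with no test.

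The members and the 12 lists (187 genes, 131 measured) were chosen with earlier results of these data known. Nameable were the members, any gene of the receptor, adaptor and ligand lists that reached the floor, up to 4 genes with the highest signal of other lists, and the 5 nearest in pattern. Other marker and neighbour genes, and family genes under the floor, were named after their values were seen. The 8 alternatives, and each other probe set of Klrb1b, are listed in the closing section. The steps were tested on simulated data and run with Python 3.11.15, numpy 2.4.6 and pandas 2.3.3.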

Additional observations from a re-analysis of the deposited data

How the results depend on the processing

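The floor was moved to the 25th or the 75th percentile, removed, or replaced by a pseudocount at the 25th percentile. Arrays were also set to equal medians or quantile-normalized, probe sets of a gene were averaged, shared probe sets were dropped, and each other Klrb1b set was used. All 15 member ratios past 4-fold kept their sign in the 127 values these gave, and 118 of the 127 stayed past it. The floor at the 75th percentile ended the calls of Klrk1 (log2 ratio 0.34) and Klra17 (0.57) for the CX3CR1- cells over both low populations, leaving 2 members called in each of these comparisons. The pseudocount took Klrk1 in the CX3CR1- cells over the CD11b+ cells to 1.85, and the set of Klrb1b that reads 406 in the DCs lost all 4 calls of that gene (1.98 for the DCs and 1.06 for the CX3CR1- cells). Without shared probe sets Klrk1 has no value, and 0 members were called for the DCs over the CX3CR1- cells. Klrb1b in the CX3CR1high macrophages over the CD11b+ cells moved to 0.02 with the mean over probe sets, against 1.19. No list median that was past 4-fold turned its sign, and neither did any list gene put through these settings. Those genes were the measured ones of the receptor, adaptor and ligand lists and the 4 with the highest signal of each other list. Counts of all called genes moved by over 1.5 times only with the floor, by its construction. For the DCs over the CX3CR1- cells, the CX3CR1high macrophages and the CD11b+ cells they were 545, 990 and 1008 with the lower floor, 115, 252 and 236 with the higher one and 1629, 2048 and 2202 with none. For the CX3CR1- cells over the CX3CR1high macrophages and the CD11b+ cells, and the CX3CR1high macrophages over the CD11b+ cells, they were 325, 164 and 268 with the lower floor, 84, 37 and 49 with the higher one, and 1265, 1177 and 1240 with none. Genes at least 4-fold above all other populations numbered 18, 1, 14 and 9 in the DCs, CX3CR1- cells, CX3CR1high macrophages and CD11b+ cells with the higher floor and 115, 70, 111 and 110 with none, and with the lower floor 5 in the CX3CR1- cells, 67 in the macrophages and 27 in the CD11b+ cells. Signals near the floor limit the ratios of Klra17 and Klrk1. No paired analysis was possible because each population has 1 array.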
